A study of Homo sapiens with 3 samples.

Results

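The genes described here control how many Wnt receptors a cell keeps on its surface, or are inhibitors or readouts of the Wnt pathway. They are RNF43, ZNRF3, LGR4, LGR5, AXIN2, NKD1, NKD2, LEF1, TCF7 and ENC1. They were taken as every probe set that the array platform's annotation assigns to exactly 1 of these 10 symbols, with no filter on expression. The list was drawn up because RNF43, ZNRF3 and ENC1 read higher than the control with both hairpins in these same arrays. Their differences from the control are therefore given as a description, without a test. The annotation assigned 20 of the 54613 probe sets on the array to 9 of the 10 genes, among 19775 genes in all. TCF7 had no probe set assigned to it alone, and no value is given for it.

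RNA came from HCT116, an established human colorectal carcinoma cell line, grown in McCoy's 5A medium. Cells were infected with lentivirus carrying a scrambled short hairpin RNA (shRNA) as control, UHRF1 hairpin 2 or UHRF1 hairpin 5, and all 3 cultures were under puromycin for 6 days before harvest. Each condition was measured on 1 Affymetrix array of biotin-labelled cRNA. UHRF1 binds hemimethylated CpG sites and the tail of histone H3 and maintains DNA methylation, and the design asked which genes it regulates.

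Wnt ligands bind Frizzled receptors together with the co-receptors LRP5 and LRP6, which stops the destruction complex from degrading beta-catenin. Beta-catenin then enters the nucleus and activates target genes with transcription factors of the TCF and LEF family. RNF43 and ZNRF3 are related membrane-bound ubiquitin ligases that remove Frizzled receptors from the cell surface. R-spondins, acting through LGR4 or LGR5, clear these ligases and so leave more receptor in place. RNF43, ZNRF3, AXIN2, NKD1, LGR5, LEF1 and TCF7 are themselves induced by Wnt signalling in intestinal epithelium, which makes several of them negative feedback genes. HCT116 cells carry an activating mutation of beta-catenin, so the pathway downstream of the receptors is active in them without ligand.

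The promoters of RNF43 and NKD2 are shown because these are members whose single probe set lay well above the bulk of the array, and the stretches differ in the number of CpG dinucleotides, the sites at which UHRF1 acts. Each is the 250 bases before an annotated start, 5′ to 3′ on the strand of the gene, from RefSeq (GRCh38.p14), with CpG dinucleotides in capitals. The RNF43 windows lie at chr17:58417535-58417784 and chr17:58402722-58402971, both on the minus strand, and the NKD2 window at chr5:1008552-1008801 on the plus strand.
RNF43, upstream start: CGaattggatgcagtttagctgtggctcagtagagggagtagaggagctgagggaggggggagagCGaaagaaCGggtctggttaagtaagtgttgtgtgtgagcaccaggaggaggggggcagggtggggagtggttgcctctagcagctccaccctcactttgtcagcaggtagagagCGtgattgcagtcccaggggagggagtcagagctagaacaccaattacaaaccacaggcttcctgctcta
RNF43, downstream start: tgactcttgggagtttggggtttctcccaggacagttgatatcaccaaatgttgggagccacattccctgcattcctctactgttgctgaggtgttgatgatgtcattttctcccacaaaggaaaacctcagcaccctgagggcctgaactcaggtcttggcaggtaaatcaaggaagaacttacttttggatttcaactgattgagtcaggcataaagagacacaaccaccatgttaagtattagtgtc
NKD2: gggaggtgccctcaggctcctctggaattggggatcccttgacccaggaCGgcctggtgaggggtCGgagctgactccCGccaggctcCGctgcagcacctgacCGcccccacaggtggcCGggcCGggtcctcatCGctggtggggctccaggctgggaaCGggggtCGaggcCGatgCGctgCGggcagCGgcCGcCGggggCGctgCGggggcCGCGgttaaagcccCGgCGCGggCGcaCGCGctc
The upstream RNF43 window held 4 CpG and the downstream one held 0, while the NKD2 window held 26. Over all 35116 promoter windows of this length the median was 11 CpG, with quartiles of 3 and 23. Entries were found for 5 of the 10 genes, RNF43, LGR4, NKD2, LEF1 and TCF7, with 7 windows in all. LGR4 had 14 CpG, LEF1 had 8, and the TCF7 starts had 22 and 1. The core letters of the TCF and LEF binding motif, CTTTGA, searched on both strands, were in none of the 7 windows and in 11.2% of all windows. That count says only that these letters are not in these windows. No methylation was measured in this series.

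The UHRF1 transcript stood at 8.54 under the scrambled hairpin, 6.20 under hairpin 2 and 6.67 under hairpin 5, all on the log2 scale of the deposited values, so its signal was lower with both hairpins. The array medians were between 2.98 and 3.04. Of 9 colorectal epithelial markers, EPCAM, KRT8, KRT18 and KRT19 lay above the 75th percentile of genes on the control array, and KRT20 and VIL1 read 2.77 and 3.13 there, near the array median. KRT20 read 5.62 with hairpin 2 and 2.64 with hairpin 5. The other epithelial markers, CDH1, CDX1 and CDX2, read 6.16, 4.66 and 4.46 on the control array. CDH1 read 7.145 with hairpin 2 and 6.332 with hairpin 5. The epithelial markers summed to between 65.5 and 70.1 on the log2 scale, the 4 measured leukocyte markers to between 10.7 and 11.1, and the 4 endothelial markers to between 11.3 and 11.9. The 6 fibroblast markers summed to between 20.2 and 20.8, with COL1A1 the highest at 6.39 with hairpin 2. The lists differ in length, so their sums cannot be compared with each other. The part of these marker differences in the results below was not tested.

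Both ubiquitin ligases that remove Wnt receptors read higher with either hairpin. RNF43 (218704_at) stood at 5.46 under the scrambled hairpin, 6.47 under hairpin 2 and 6.52 under hairpin 5. The hairpin arrays lay close together and well above the control. RNF43 was thus 2.01-fold above the control with hairpin 2 and 2.08-fold with hairpin 5, a mean log2 difference of 1.03 ± 0.03 (SD, n = 2 hairpins). ZNRF3 (226360_at) stood at 3.52 under the scrambled hairpin, 4.28 under hairpin 2 and 4.25 under hairpin 5. This again set a lower control against 2 nearly equal hairpin arrays, at 1.69-fold and 1.66-fold and a mean log2 difference of 0.74 ± 0.02 (SD, n = 2 hairpins). On the control array the RNF43 signal lay at the 81.5th percentile of probe sets. The ZNRF3 signal lay at the 63.8th, near the bulk of the array, and a fold measured from such a level is uncertain.

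The difference between the hairpin arrays was 0.05 for RNF43 and 0.02 for ZNRF3 in size. Over the 11865 genes bright enough for the fit described below, the median size of that difference was 0.25 and the 90th percentile 0.68. Ranked by difference from the control among all 19775 genes, RNF43 was at place 140 with hairpin 2 and place 20 with hairpin 5, and ZNRF3 at places 357 and 141. Both rankings use the same control array, so a low control value for a gene raises its place in both. RNF43 and ZNRF3 were chosen for being higher with both hairpins. Nothing is therefore read from their places or from the closeness of their hairpin arrays.

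The receptors that oppose these ligases showed no common direction. LGR4, an R-spondin receptor broadly expressed in epithelia, had 3 probe sets. Its brightest (222596_s_at) stood at 3.80 under the scrambled hairpin, 3.42 under hairpin 2 and 3.91 under hairpin 5, so the control lay between the hairpins. The other two lay below the control array's median there, differing by 0.24 and −0.16 (218326_s_at) and by −0.19 and 0.37 (230674_at) for hairpins 2 and 5. The control thus lay between the hairpins for all 3 probe sets, with hairpin 5 the highest for 2 of them and hairpin 2 the highest for the other. LGR5, the R-spondin receptor known as a marker of intestinal stem cells, stayed at low signal on all arrays. Its brighter probe set (210393_at) read 2.88, 2.69 and 2.74 on the control, hairpin 2 and hairpin 5 arrays, and the other (213880_at) read 2.21, 2.46 and 2.28. All of these LGR5 values were under the medians of their arrays, so a change in LGR5 was not detectable at this signal.

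Among the intracellular feedback inhibitors, AXIN2 gave different answers by probe set. AXIN2 is a scaffold of the destruction complex and a widely used readout of beta-catenin activity. One probe set (222696_at) stood at 3.11 under the scrambled hairpin, 3.74 under hairpin 2 and 3.70 under hairpin 5, which put both hairpins above the control by 0.63 and 0.59. The brightest of the gene's probe sets (224176_s_at) read 3.57, 3.54 and 3.46, and so differed by −0.03 and −0.11. The remaining pair differed by 0.03 and 0.09 (222695_s_at) and by −0.22 and 0.11 (224498_x_at). The 0.6 higher signal was thus seen with 1 of 4 probe sets, and all 4 lay between the 34.9th and 64.4th percentile of the control array. Averaged over all of its probe sets, AXIN2 lay 0.10 above the control for hairpin 2 and 0.17 for hairpin 5.

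The Naked proteins NKD1 and NKD2 bind Dishevelled and dampen Wnt signalling. NKD1 was read by 3 probe sets, all between 2.84 and 3.32 on every array. Their differences from the control ranged from −0.31 to 0.16, and the brightest (229481_at) differed by −0.11 with hairpin 2 and 0.07 with hairpin 5. NKD2 (232201_at) lay at the 89.5th percentile of probe sets on the control array. It stood at 6.73 under the scrambled hairpin, 6.36 under hairpin 2 and 6.25 under hairpin 5, with the control above both hairpins. The mean log2 difference was −0.43 ± 0.08 (SD, n = 2 hairpins), or 1.29-fold and 1.39-fold lower. The difference lay at the 5.39th percentile of all probe sets with hairpin 2 and the 5.7th with hairpin 5. NKD2 thus stood opposite to RNF43 and ZNRF3, although all are known as inhibitors of Wnt signalling.

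LEF1, a transcription factor that brings beta-catenin to DNA, was read by 3 probe sets. The brightest (221557_s_at) stood at 4.20 under the scrambled hairpin, 4.12 under hairpin 2 and 4.58 under hairpin 5, with hairpin 5 standing above the other two. The others read between 2.13 and 2.67 on all arrays, under the array medians, with differences between −0.17 and 0.17.

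ENC1, an actin-binding Kelch-repeat protein reported as a beta-catenin target in colorectal tumours, had the largest differences of the members. Its brighter probe set (201341_at) stood at 5.41 under the scrambled hairpin, 6.99 under hairpin 2 and 7.40 under hairpin 5. Both hairpins stood far above the control, and hairpin 5 above hairpin 2 by 0.40. With hairpin 5 that was 3.96-fold higher, and the hairpins gave a mean log2 difference of 1.79 ± 0.28 (SD, n = 2 hairpins). The second probe set (201340_s_at) read 2.83, 2.77 and 2.85 on the control, hairpin 2 and hairpin 5 arrays, under the median of each array, and did not separate them. Averaged over both probe sets, ENC1 lay 0.76 above the control with hairpin 2 and 0.88 above it over both hairpins. Among all genes the brighter probe set placed ENC1 at rank 52 with hairpin 2 and rank 3 with hairpin 5. ENC1 too was chosen for being higher with both hairpins, and both ranks use the same control array. Nothing is therefore read from these ranks.

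**Figure D1:**
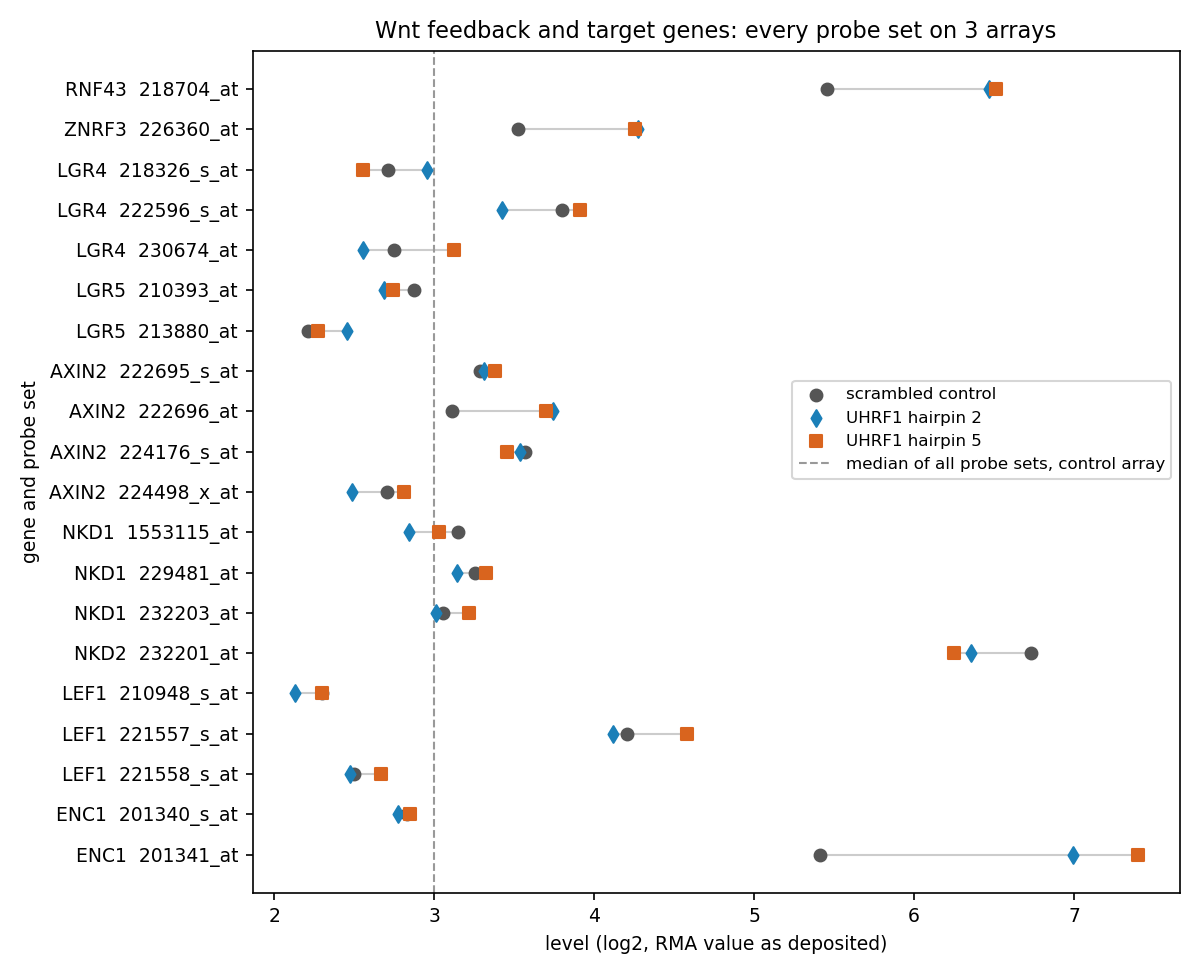
Level of every member probe set (rows) on the control, UHRF1 hairpin 2 and UHRF1 hairpin 5 arrays, 1 array each, on the log2 scale as deposited; grey lines join the lowest and highest array, and the dashed line is the control array's median over all probe sets. RNF43, ZNRF3, 1 of 4 AXIN2 probe sets and 1 of 2 ENC1 probe sets have both hairpins at least 0.59 to the right of the control, NKD2 has them to the left (−0.37 and −0.48), and 8 of the 20 probe sets read at or under the dashed line on the control array.

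Across the 20 probe sets, the differences from the control had a median of −0.05 (hairpin 2) and 0.10 (hairpin 5), beside −0.01 and 0.01 over all 54613 probe sets. With each gene represented by its brightest probe set, 2 of the 9 genes, RNF43 and ENC1, were at least 2-fold higher with hairpin 2, where 0.728% of all genes were, and the same 2 with hairpin 5, where 0.152% of all genes were. At 1.5-fold, ZNRF3 joined them with each hairpin, beside 3.76% of all genes with hairpin 2 and 1.93% with hairpin 5. These genes were picked from this contrast, so nothing is read from their count. After cyclic loess normalisation of the arrays 1 member rather than 2 reached 2-fold with hairpin 2: RNF43 was 0.94 higher with hairpin 2 and 1.14 higher with hairpin 5, against 1.01 and 1.06 as deposited. None of the 9 was 2-fold lower with hairpin 2 (0.364% of all genes) or with hairpin 5 (1.17%), and none was 1.5-fold lower (2.03% and 6.04%). Of the 9 genes, 7 passed the 40th percentile of mean signal used below, and LGR5 and NKD1 did not.

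Hairpin 2 minus hairpin 5 ran from −0.56 to 0.40 over the 20 probe sets, and 0 of them differed 2-fold, where 1.84% of all genes were 2-fold higher with hairpin 2 and 0.121% with hairpin 5. A share of 0 in 20 is near these backgrounds. The backgrounds are over genes by brightest probe set, not over probe sets, and nothing is read from the comparison. By brightest probe set, LGR4 (−0.49), LEF1 (−0.46) and ENC1 (−0.40) differed by more than the median size of 0.25 over the tested genes. With 1 array per hairpin this contrast has no test.

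**Figure D2:**
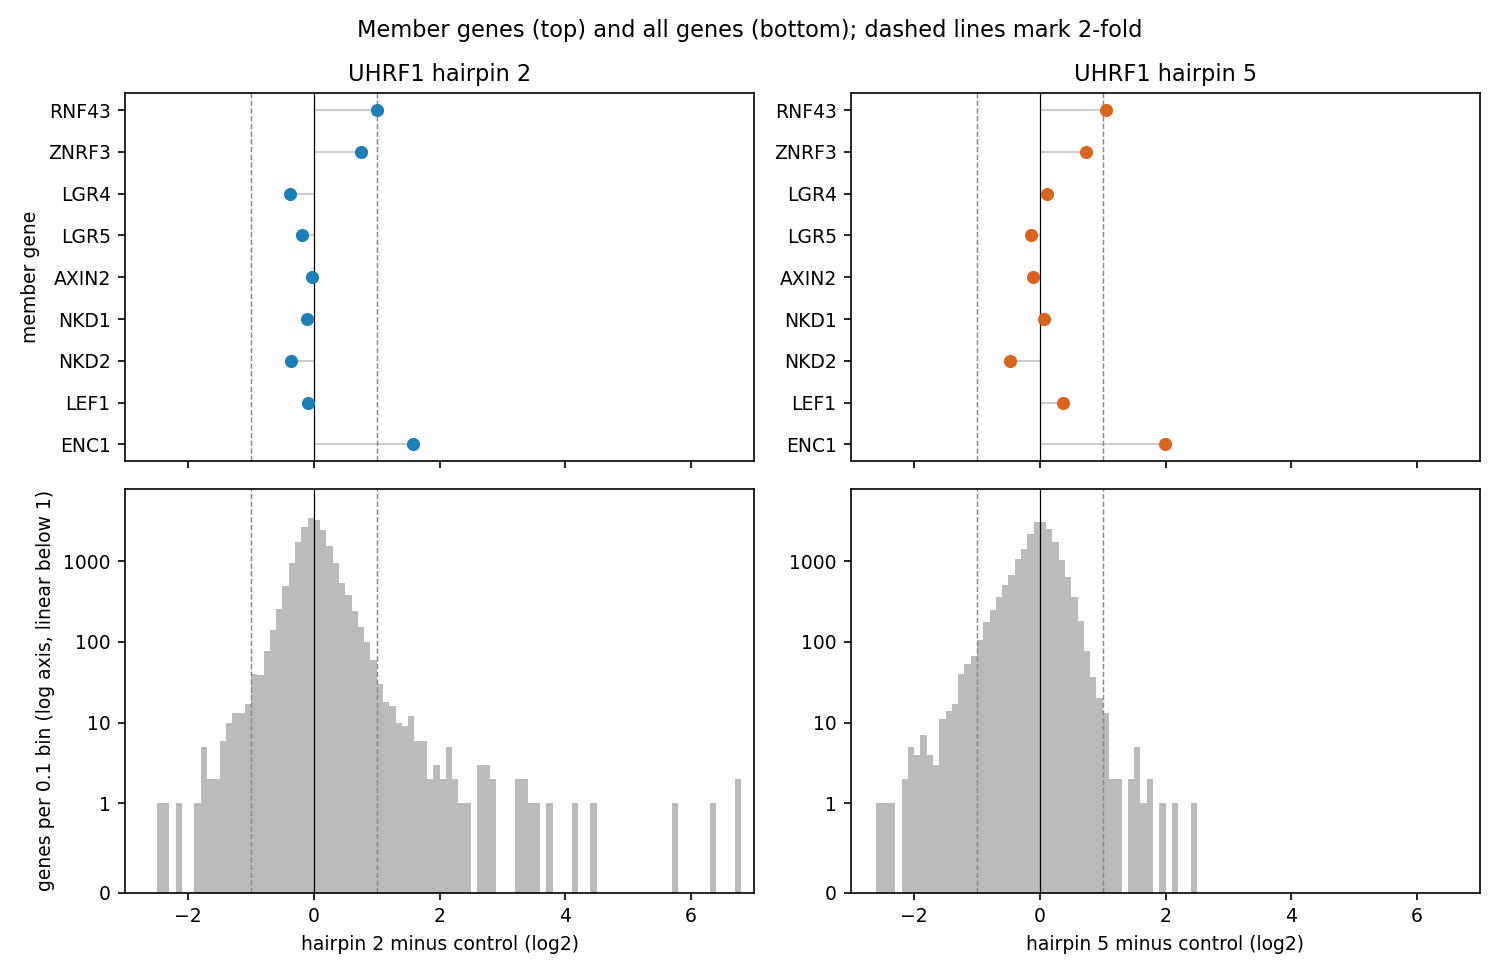
Difference from the control array (x axis, log2) for the 9 member genes by brightest probe set (upper panels, points) and for all 19775 genes (lower panels, bars of genes per 0.1 bin on a log axis), with UHRF1 hairpin 2 on the left and hairpin 5 on the right. ENC1 and RNF43 lie past the dashed 2-fold line on the right in both panels, ZNRF3 lies at 0.76 and 0.73, and the remaining 6 genes lie between −0.48 and 0.38.

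Genes with like differences were sought among the 11865 genes bright enough for the fit described below. Distance was Euclidean, over the 2 hairpin differences from the control. Nearest to RNF43 were SFT2D2 (0.97 and 0.94 higher with hairpins 2 and 5), BDH2 (0.87 and 0.97) and MYLK-AS1 (1.04 and 0.89), at distances of 0.12 to 0.17. On the control array MYLK-AS1 read 2.78, under the filter level of 3.28, and it passed through its hairpin arrays. Those nearest to ZNRF3 were EPS8 (0.75 and 0.72), EVPL (0.76 and 0.75) and CNP (0.76 and 0.70), at distances of 0.02 to 0.03. For ENC1 they were HSPE1 (1.67 and 1.78), ABCC2 (1.77 and 1.61) and EPB41L4B (1.46 with hairpin 2, and −0.04 as hairpin 2 minus hairpin 5), at distances of 0.23 to 0.51. With so few arrays this likeness is a description only, and all of these differences share the control array.

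The rest of the pathway was set beside the members through 6 lists holding 122 further genes, of which 115 were on the array and 78 passed the filter on mean signal. For this test the 2 hairpin arrays counted as replicates of one condition, UHRF1 depletion, and the scrambled array as the other. In limma's moderated test, 0 of the 78 passed an adjusted p of 0.05 (Benjamini-Hochberg over 11865 genes), as did 0 of all genes tested (0% higher and 0% lower), with no adjusted p lower than 0.999. UHRF1, the targeted gene, was among the genes that did not pass. Nothing is therefore read from 0 passing, here or in the lists below. Without adjustment, p was under 0.05 for 2 higher genes, SOX4 and BAMBI, and 1 lower gene, PLAUR, among the 78, where 0.767% of all genes tested were higher and 1.57% lower. With averaged probe sets SOX4 and PLAUR no longer met this and CTNNBIP1, lower, did. The lists were chosen with earlier results of these data known, so nothing is read from these counts. Over the 78 genes the differences had a median of 0.08 for hairpin 2 and 0.03 for hairpin 5, beside 0.03 and −0.06 over all genes tested. The p-values measure the spread between arrays of different hairpins, and they assume that the lone control array varies as those do.

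The Frizzled receptors and their co-receptors, the proteins that RNF43 and ZNRF3 act on, are in a list of 21 receptors and R-spondins with 12 tested, of which 0 passed. FZD3, a Frizzled receptor, stood at 6.01 under the scrambled hairpin, 5.16 under hairpin 2 and 5.59 under hairpin 5. The co-receptor LRP6 read 5.25, 4.96 and 4.61 on the same arrays. Both genes had the control as the highest array, with mean log2 differences of −0.64 ± 0.30 and −0.47 ± 0.25 (SD, n = 2 hairpins), which shrank to −0.18 and −0.15 as the mean over each gene's probe sets. The R-spondin gene RSPO1 was 0.28 and 0.68 higher from a control level of 3.22, and the pseudokinase receptor PTK7 0.12 and 0.12 higher. On the control array RSPO1 lay under the filter level of 3.28, and it passed through its hairpin arrays. The list medians were 0.11 with hairpin 2 and −0.19 with hairpin 5.

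Of 21 genes for Wnt ligands and their secretion 8 were tested, and 0 passed. WLS, which carries Wnt proteins to the cell surface, was 0.43 and 0.31 higher with hairpins 2 and 5, and the ligand WNT4 0.06 and 0.12 higher. The ligand WNT7B differed by −0.50 and −0.23, and by a mean of −0.03 over its probe sets. List medians were −0.09 and 0.14. Among 16 extracellular antagonists 6 were tested and 0 passed, with medians of −0.17 and 0.19. DKK1, which blocks LRP5 and LRP6, read 11.8 on the control array and 11.5 with each hairpin, a difference of −0.30 and −0.32. KREMEN1, a DKK1 receptor, was 0.25 and 0.20 higher, and the secreted antagonist SFRP1 0.01 and 0.19 higher. Over their probe sets these means became 0.15 for KREMEN1 and 7.5e-04 for SFRP1. Like RSPO1, SFRP1 lay under the filter level on the control array (3.275 against 3.285) and passed through its hairpin arrays.

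Inside the cell, 20 genes for Dishevelled and the destruction complex were tested and 0 passed, with medians of 0.21 and −0.11. CSNK1D, a casein kinase, was 0.29 and 0.45 higher, and FBXW11, a ubiquitin ligase subunit that recognises phosphorylated beta-catenin, 0.24 and 0.29 higher. CSNK1G1 differed by −0.40 and −0.68, and CSNK1A1, the kinase that primes beta-catenin for destruction, by −0.22 and −0.53. As means over probe sets CSNK1G1 stood at −0.05, CSNK1A1 at −0.10 and FBXW11 at 0.16. Of the 15 tested transcription factors and cofactors 0 passed, with medians of 0.03 and 0.07. TCF7L2, the main TCF factor of colorectal cells, was 0.33 and 0.32 higher and the chromatin remodeller CHD8 0.32 and 0.46 higher. CTNNBIP1, which blocks the binding of beta-catenin to TCF factors, differed by −0.48 and −0.62, and the acetyltransferase CREBBP by −0.38 and −0.27, with a mean of 0.02 over the CREBBP probe sets.

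Of 25 other reported Wnt targets 17 were tested and 0 passed, with medians of 0.05 and 0.19. SOX4, a transcription factor, stood at 7.92 under the scrambled hairpin, 8.85 under hairpin 2 and 9.62 under hairpin 5, and its mean log2 difference was 1.32 ± 0.55 (SD, n = 2 hairpins), or 0.51 as the mean over its probe sets. BAMBI, a decoy receptor that dampens TGF-beta signalling, read 4.02, 4.69 and 4.86, a mean difference of 0.75 ± 0.12 (SD, n = 2 hairpins). In both genes the control was the lowest array. PLAUR, the urokinase receptor, read 8.59, 7.93 and 7.06, with the control highest, and the adhesion receptor CD44 differed by −0.69 and −0.13. As means over probe sets and hairpins, PLAUR stood at −0.72, against −1.10 for its brightest probe set, and CD44 at −0.21, against −0.41. At least 2-fold from the control were TNIK, a kinase that acts with TCF7L2, with hairpin 2 (1.62 higher, and −0.31 with hairpin 5), SOX4 with hairpin 5, and PLAUR with hairpin 5 (lower). Among all genes tested, 1.15% were 2-fold higher with hairpin 2 and 0.253% with hairpin 5, while 0.573% and 1.94% were 2-fold lower. The targets MYC (0.08 and 0.23), CCND1 (−0.42 and −0.10), SP5 (−0.17 and 0.53), ASCL2 (−0.13 and 0.31), ETS2 (0.26 and 0.40), PROX1 (0.16 and 0.36) and JAG1 (0.49 and 0.19) are given as values only and, like TNIK, were named after their values were seen. SP5 read 3.25 on the control array, under the filter level of 3.28, and passed through its hairpin 5 array.

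**Figure D3:**
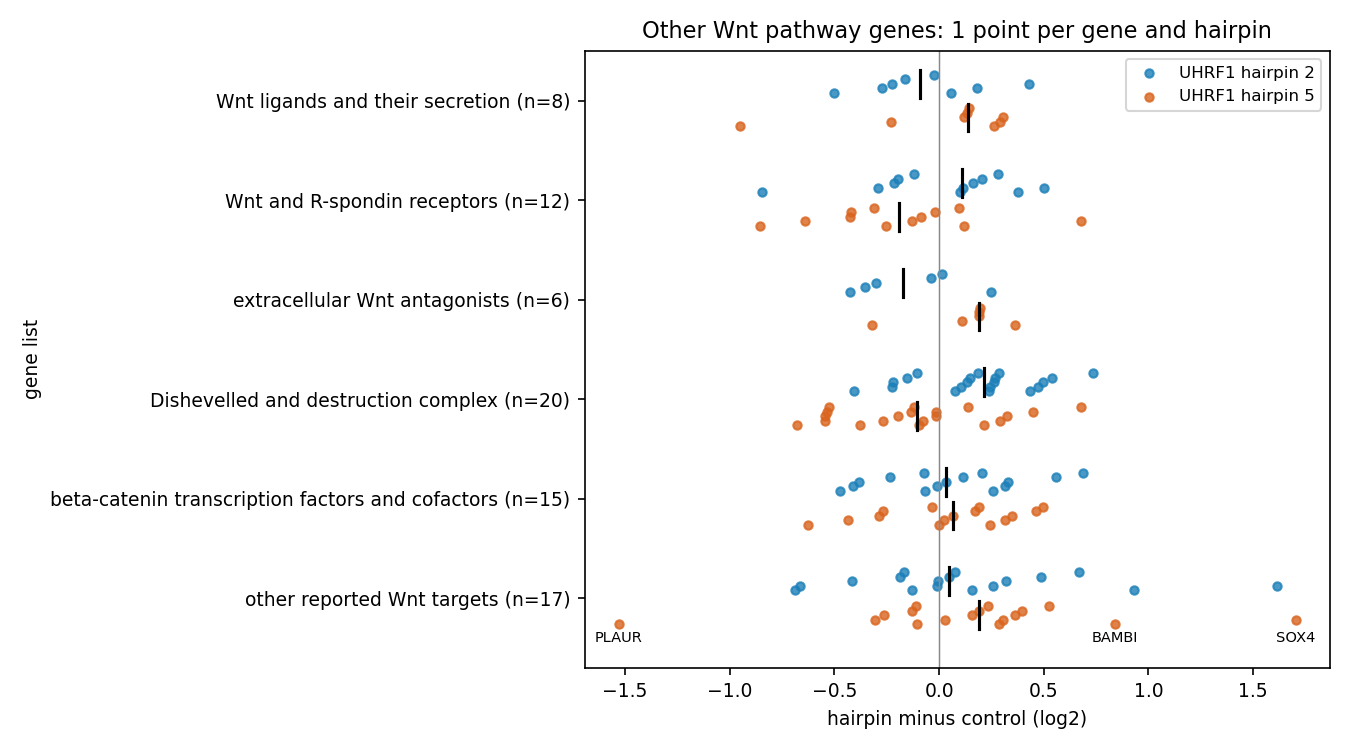
Difference from the control array (x axis, log2) of the tested genes in 6 lists of other Wnt pathway genes (y axis), 1 point per gene for UHRF1 hairpin 2 (blue) and hairpin 5 (orange), with black bars at the list medians. The medians lie between −0.19 and 0.21, and SOX4, BAMBI and PLAUR, labelled under their hairpin 5 points, are the genes with an unadjusted limma p under 0.05.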

How the data were processed

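Gene expression was measured on 3 single-colour Affymetrix arrays, 1 per shRNA. The deposited values are log2 signals per probe set. The submitters' processing notes name Affymetrix Expression Console and the RMA method; versions, settings and build are not given in the sources used here, and log base 2 was taken from how far the values reach. The values carry no detection calls. Precision is limited by having only 3 arrays.

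Probe sets were named through the platform's annotation: 41091 had 1 gene, 1801 several and 11721 none. Gene identifiers of 41037 were matched to RefSeq (GRCh38.p14) for current symbols. For each gene the brightest probe set, by mean of the 3 arrays, was used. Differences are hairpin minus control, and the SD is over the hairpins. Genes at or above the 40th percentile of mean signal (log2 3.28) were tested in limma 3.58.1 (R 4.3.3, lmFit and eBayes, two-sided, Benjamini-Hochberg). With 3 arrays the residual degrees of freedom are 1, or 5.77 after moderation. The labels do not say whether the cultures were independent, and effects of hairpin, culture and array cannot be told apart.

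The members and the lists were chosen with earlier results of these data known. Named genes were all members, UHRF1, the 2 genes of each list furthest from 0 in each direction by the smaller of the hairpin differences, and the 3 genes nearest to RNF43, ZNRF3 and ENC1. Outside this rule, MYC, CCND1, SP5, ASCL2, ETS2, PROX1, JAG1, TNIK and the named cell type markers were picked after their values were seen. Alternatives were median centring, cyclic loess, averaging a gene's probe sets, dropping _x_at probe sets, other fold thresholds, filters, variance priors and p thresholds, and each hairpin alone.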

Additional observations from a re-analysis of the deposited data

How the results depend on the processing

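RNF43, ZNRF3 and ENC1 stayed higher than the control under median centring and cyclic loess. The array medians lay between 2.98 and 3.04, so centring could not turn differences of this size. The 3 genes were chosen for being higher, so nothing is read from their staying so. Averaging of probe sets left ENC1 higher too, but could not change RNF43 and ZNRF3, which have 1 probe set each. Removal of _x_at probe sets could not change any of these genes, which have none. The mean difference of ZNRF3 was 0.72 with cyclic loess, and that of ENC1 fell from 1.79 to 0.88 as the mean over its probe sets, 1 of which read under the array median. With each hairpin alone RNF43 ranged from 1.01 to 1.06, ZNRF3 from 0.73 to 0.76 and ENC1 from 1.58 to 1.99. These genes were chosen for being higher with both hairpins, so their sign with each hairpin alone was fixed beforehand. The sign turned for LGR4 (3.3e-04) and AXIN2 (0.14) with the mean of probe sets, and with 1 hairpin left out LGR4 ranged from −0.38 to 0.11, NKD1 from −0.113 to 0.069 and LEF1 from −0.086 to 0.376. Members at least 2-fold higher with hairpin 2 numbered 2 as deposited, 1 with cyclic loess and 1 with the mean of probe sets. At 3-fold they numbered 0 with hairpin 2, where ENC1 was 2.998-fold higher, and 1 with hairpin 5. At 1.5-fold they numbered 3 with each, where 3.76% (hairpin 2) and 1.93% (hairpin 5) of all genes were higher. The members were picked from this contrast, so nothing is read from their counts. Over all 19775 genes, the counts past 2-fold were 144 higher (0.728%) and 72 lower (0.364%) with hairpin 2. With hairpin 5 they were 30 higher (0.152%) and 231 lower (1.17%). In the same order they became 129, 87, 39 and 190 with cyclic loess, and 88, 29, 16 and 102 with the mean of probe sets. At 1.5-fold they were 743, 401, 381 and 1195, and at 3-fold 51, 11, 7 and 28. The cause of these shifts was not tested. In limma, 0 of the other Wnt genes passed an adjusted p of 0.05 under every alternative run. At an unadjusted p under 0.05 there were 3 as deposited and 2 or 3 under the alternatives: SOX4 and PLAUR dropped out and CTNNBIP1 came in with averaged probe sets, PLAUR dropped out and CTNNBIP1 came in with no filter, BAMBI dropped out and DKK1 came in with an intensity trend, and BAMBI was under the 60th percentile filter. No paired analysis was possible because there is 1 control array, and leaving out a hairpin leaves limma no residual degrees of freedom. Signals near the array median limit what LGR5, NKD1 and most LEF1 and AXIN2 probe sets can show.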
